A study of Mus musculus with 4 samples.

Results

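The genes described here are 8 members of the insulin-like growth factor (IGF) system, of 28692 genes listed in each library. They are the ligand gene *Igf1*, the receptor gene *Igf1r* and the binding protein genes *Igfbp2*, *Igfbp3*, *Igfbp4*, *Igfbp5*, *Igfbp6* and *Igfbp7*. The members had been chosen by their levels and shares of cells across libraries, regions and cell groups in these same data, so values by region and by cell class are a description without a test. Stromal cells of untreated mouse embryos at E12.5 were measured by droplet single-cell RNA sequencing, with 2 libraries of the small intestine (SI) and 2 of the large intestine (LI), which included the cecum. All animals were of the strain labelled EYFP (C57BL/6), which carries a yellow fluorescent protein, and embryos were pooled within each of 2 independent experiments. The sort kept live cells that were CD45-, Ter119-, CD31-, EpCAM-, Itgb1+ and YFP+, which leaves out leukocytes, erythroid cells, endothelium and epithelium and holds mesenchymal stromal cells (MSC), mesothelium and the neural cells of the gut wall. The titles give E12.5, whereas other labels of these libraries name adult stroma and lamina propria, and the labels do not say which library was made with a 3′ and which with a 5′ kit, so kit and library cannot be told apart.

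IGF1 and IGF2 are small secreted hormones that signal through the receptor tyrosine kinase encoded by *Igf1r*, which drives growth and survival through insulin receptor substrates, PI3 kinase and AKT. Most IGF outside cells is held by binding proteins, which lengthen its life, keep it from the receptor or, once cut by proteases, release it near the cell. IGFBP2, IGFBP3, IGFBP4, IGFBP5 and IGFBP6 are high-affinity binding proteins, IGFBP6 prefers IGF2, and IGFBP7 binds IGF weakly and is better known as a matrix protein of vessels. In the embryo IGF2 rather than IGF1 is the main ligand.

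The members lie on 6 chromosomes of the mouse genome build mm10. *Igfbp2* (chr1:72824503-72852474, plus strand) and *Igfbp5* (chr1:72857932-72874884, minus strand) are neighbours that point toward each other with 5458 bases between their ends. *Igfbp3* (chr11:7206086-7213923, minus strand) and *Igfbp4* (chr11:99041244-99054392, plus strand) lie far apart on a shared chromosome. *Igfbp6* (chr15:102144362-102149511, plus), *Igfbp7* (chr5:77349240-77408041, minus), *Igf1* (chr10:87858265-87937042, plus) and *Igf1r* (chr7:67952827-68233668, plus) lie alone. Exons of *Igfbp7* overlap those of the antisense gene *Polr2b*, and whether counting used strand is not given in the sources used here. No exon of another gene listed in the libraries overlaps the other 7 members.

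The stretches just upstream of *Igfbp2* and *Igfbp5* are shown because these neighbours had opposite orders of SI and LI in smooth muscle-like cells. Each holds the 250 bases before the annotated transcription start, 5′ to 3′ on the gene's own strand, from RefSeq (GRCm38.p6), at chr1:72824230-72824479 for *Igfbp2* (the first of 2 annotated starts) and at chr1:72874866-72875115 for *Igfbp5*. Capitals mark every match, on either strand, to 4 short promoter motifs, which were the TATA box TATAAA, its variant form TATTTAA, the GC box GGGCGG and the box named CCAAT.

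Igfbp2 upstream: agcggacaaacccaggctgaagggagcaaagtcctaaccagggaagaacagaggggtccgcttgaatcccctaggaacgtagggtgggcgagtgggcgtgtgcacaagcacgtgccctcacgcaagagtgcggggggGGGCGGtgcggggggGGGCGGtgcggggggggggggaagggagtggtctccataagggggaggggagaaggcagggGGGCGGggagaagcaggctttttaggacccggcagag

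Igfbp5 upstream: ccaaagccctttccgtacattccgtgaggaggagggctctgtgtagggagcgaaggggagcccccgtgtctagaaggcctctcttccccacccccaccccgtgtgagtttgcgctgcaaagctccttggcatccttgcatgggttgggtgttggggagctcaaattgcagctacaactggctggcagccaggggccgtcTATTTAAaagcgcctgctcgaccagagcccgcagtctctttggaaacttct

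*Igfbp2* held GGGCGG 3 times, beginning 113, 98 and 37 bases before its start, a motif that 32.7% of 32817 annotated promoters hold within the same length. *Igfbp5* held TATTTAA once, 51 bases before its start, which 4.18% of promoters hold. The G and C share was 67.2% for *Igfbp2* and 58.8% for *Igfbp5*. Of the other members, *Igfbp7* held GGGCGG 4 times and *Igf1r* held it 2 times, *Igfbp4* held TATAAA 28 bases before its start and *Igfbp6* held it on the reverse strand at 148 bases (12.4% of promoters), and *Igf1* and *Igfbp6* held CCAAT (33.8% of promoters). None of these matches shared bases with a match to another of the 4 motifs. The motifs were picked with the sequences known, and a match is no evidence of a bound factor.

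The 4 libraries held 31630548 to 62886525 unique molecular identifiers (UMIs, each a captured transcript), and 22094 cells passed the filters, with median depths of 4220.5 UMIs in LI replicate 1 and 8382 to 8829 UMIs in the others. Any pair of libraries shared 8 to 15 cell barcodes. Clustering without the members gave 12 clusters, of which 7 could be named by marker lists. Fibroblast (FB)-like cells (clusters 0, 2 and 4) numbered 11074, smooth muscle (SMC)-like cells (cluster 1) 4815, mesothelial-like cells (cluster 5) 1317 and neural-like cells (clusters 7 and 9) 1246. The other 3642 cells stayed unnamed, among them cluster 3 (led by *Adamdec1* and *Bmp3*, 1958 cells), cluster 6 (mitotic genes and *Epcam*, 1117 cells), cluster 8 (led by *Foxd1*, 387 cells), and cluster 10, which was led by platelet genes and came to 153 of 162 cells from LI replicate 2. The mesothelial, neural and SMC lists stood highest in their own class in every library. The 11 FB markers did not set FB-like cells apart, since they summed to 1530 to 2414 UMIs per 1000000 (CPM) there, 1572 to 2712 CPM in SMC-like and 1736 to 3955 CPM in mesothelial-like cells. The 12 SMC markers summed to 1128 to 2097 CPM in FB-like cells, which overlapped the lowest SMC-like library (1917 CPM), so FB-like names clusters without another class's markers among their leading genes and not cells that lack those markers. Cluster 2 among them was led by histone genes of S phase. *Igfbp5*, though left out of the clustering, was among the 10 leading genes of cluster 0.

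*Igf1*, which encodes the secreted ligand, was highest in mesothelial-like cells among the 4 named classes. Its level, as UMIs per 1000000 UMIs of the class, was 46.8 and 65.3 CPM in LI replicates 1 and 2 and 129 and 184 CPM in SI replicates 1 and 2, and values below are given in this order. The SI libraries lay above the LI libraries, 2.78-fold in the mean (log2 fold change 1.55 ± 0.24, SE). The sum of the 11 FB markers in mesothelial-like cells was also higher in SI (3002 and 3955 CPM) than in LI (1736 and 2826 CPM), and its part in the values of *Igf1* and *Igfbp5* in this class was not tested. In neural-like cells the order was the other way round, with 38.4 and 30.5 CPM in LI and 28.7 and 11.6 CPM in SI. LI replicate 2 and SI replicate 1 were close there. FB-like cells held 16.2 and 24.7 CPM in LI and 14.4 and 38.0 CPM in SI, which overlapped, and the log2 fold change of 0.50 ± 0.40 turned to -0.33 without SI replicate 2. SMC-like cells held 3.71, 8.66, 11.1 and 7.71 CPM. Over all 4 libraries the mean was 106 ± 62.4 CPM in mesothelial-like, 27.3 ± 11.3 in neural-like, 23.3 ± 10.8 in FB-like and 7.80 ± 3.08 in SMC-like cells (SD, n = 4). The lowest mesothelial-like library exceeded the highest neural-like one, neural-like and FB-like values overlapped, and all FB-like libraries lay above all SMC-like ones.

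*Igf1* was uneven within these classes. In cluster 4, the FB-like cluster led by *Anxa2*, *Wnt4* and *Tac2*, it reached 52.2, 56.9, 49.8 and 127 CPM, against 7.89 to 23.6 CPM in cluster 0 and 4.46 to 10.4 CPM in cluster 2. In cluster 0 LI lay above SI without overlap, 1.98-fold in the mean, whereas clusters 2 and 4 overlapped. Cluster 4 made up 458 of 3520, 335 of 2428, 368 of 2472 and 698 of 2654 FB-like cells, and its part in the FB-like values was not tested. Cluster 4 exceeded mesothelial-like cells in LI replicate 1, and the unnamed cluster 8 did so in LI replicate 2, with 30.005, 99.7, 96.1 (19 cells) and 24.7 CPM. Within the neural-like class, cluster 7 with the progenitor genes *Sox10* and *Foxd3* held 45.6, 37.5, 36.3 and 15.3 CPM, whereas cluster 9 with the neuronal genes *Tubb3* and *Stmn2* held 0, 0, 1.96 and 0 CPM. With each cell thinned to 3000 UMIs, the share of mesothelial-like cells with an *Igf1* UMI was 9.09% (95% Wilson interval 6.98 to 11.8) and 11.5% (7.94 to 16.3) in LI and 23.8% (19.1 to 29.4) and 41.7% (34.5 to 49.2) in SI. Unthinned shares were 14.6, 23.5, 48.5 and 65.5%. SMC-like cells, the class with the lowest level, gave 0.862 to 3.30% at the same depth, and intervals cover counting error only.

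*Igf1r*, the receptor gene, was read in every class at similar levels. The means over 4 libraries were 150.2 ± 65.6 CPM in mesothelial-like, 132 ± 40.0 in neural-like, 115 ± 49.0 in FB-like and 98.2 ± 42.4 in SMC-like cells (SD, n = 4), and all 4 classes overlapped. LI replicate 2 was highest in 4 of 4 classes, and within each region replicate 2 lay above replicate 1 in every class. Neural-like cells held 102 and 177 CPM in LI against 95.1 and 155 CPM in SI. FB-like cells held 96.6 and 185 CPM in LI against 71.7 and 105 CPM in SI, and mesothelial-like cells held 119 and 249 CPM in LI against 114 and 119 CPM in SI. LI lay above SI without overlap in SMC-like cells (91.4 and 158 against 58.8 and 84.3 CPM), whereas in mesothelial-like cells LI replicate 1 and SI replicate 2 were practically equal. Without LI replicate 2 the difference between regions (SI over LI, log2) went from -0.52 ± 0.30 to -0.03 in FB-like cells, from -0.66 ± 0.29 to -0.21 in SMC-like cells and from -0.58 ± 0.28 to -0.00405 in mesothelial-like cells. Those fits left 1 LI library. Between libraries with the same replicate number, which marks no stated pairing, LI lay above SI in all 4 classes.

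*Igfbp5*, whose product binds IGF and the extracellular matrix, came mostly from FB-like cells, which gave 75.4% of its 49508 UMIs but 47.0% of the UMIs of all genes. FB-like cells held 498 and 760.3 CPM in LI and 181 and 347 CPM in SI, so that both LI libraries lay above both SI libraries, 2.38-fold in the mean (log2 fold change -1.10 ± 0.31, and -0.72 to -1.62 with a library left out). SMC-like cells held 246 and 225 CPM in LI but 38.5 and 29.8 CPM in SI, which is 6.89-fold (-2.64 ± 0.20). Mesothelial-like cells went the other way, with 234 and 339.7 CPM in LI and 342 and 658 CPM in SI (0.87 ± 0.28), although LI replicate 2 and SI replicate 1 were nearly equal and the difference was 0.34 without SI replicate 2. Neural-like cells held 16.5, 5.92, 4.12 and 6.61 CPM.

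Over the classes *Igfbp5* averaged 447 ± 246 CPM in FB-like, 393 ± 183 in mesothelial-like, 135 ± 116 in SMC-like and 8.28 ± 5.56 in neural-like cells (SD, n = 4), and only neural-like cells lay below every library of the other 3 classes. The share of FB-like cells with a UMI, thinned to 3000 UMIs, was 61.3% (59.5 to 63.1) and 74.4% (72.6 to 76.1) in LI and 35.0% (33.2 to 36.9) and 50.4% (48.5 to 52.4) in SI, and 71.5, 88.7, 56.8 and 70.3% unthinned. In SMC-like cells it was 42.6 and 33.9% in LI against 10.2 and 7.48% in SI. Neural-like cells gave 0.627 to 1.89% at the same depth, and the median depths before thinning were 13202.5 UMIs in neural-like, 7193 in FB-like and 7586 in SMC-like cells. Thinning left out 718 of 3520 FB-like cells of LI replicate 1 and 31 to 97 in each of the other 3 libraries.

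**Figure D1:**
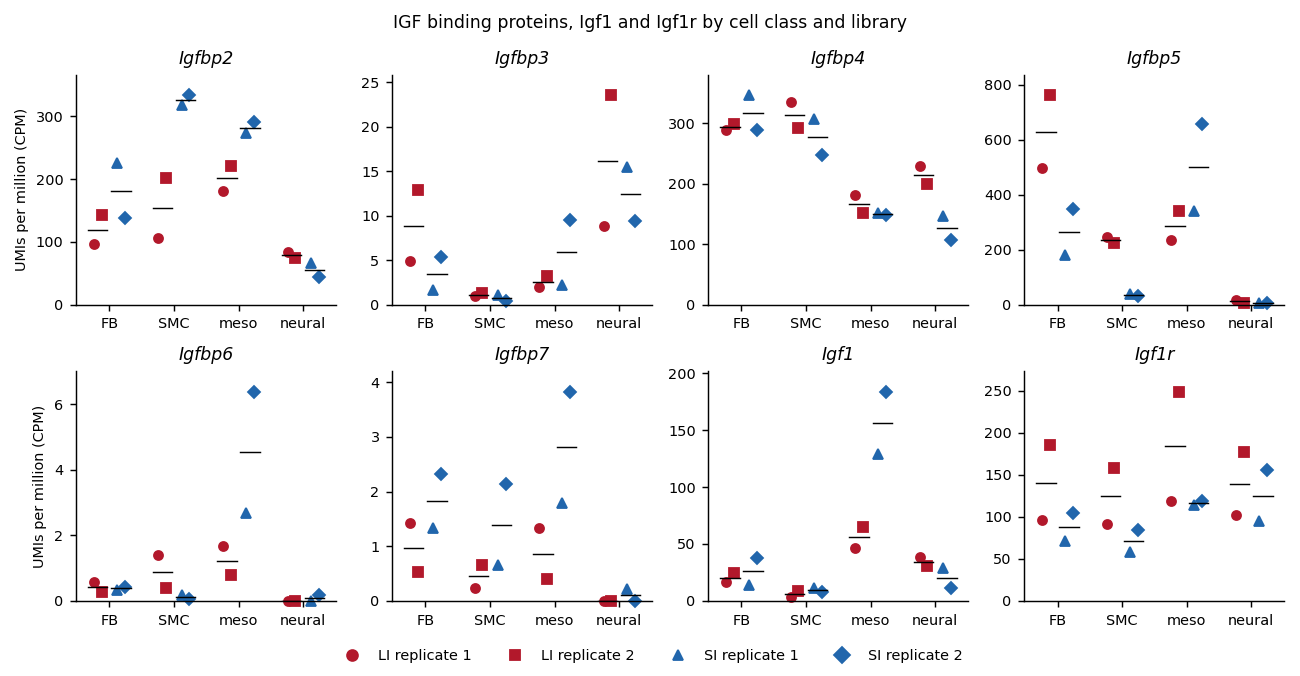
Level of each member (CPM, linear axis from 0) in FB-like, SMC-like, mesothelial-like and neural-like cells, with 1 point per library (red LI, blue SI) and a black line at the mean of each region. *Igfbp5* stands higher in LI than in SI in FB-like and SMC-like cells and lower in mesothelial-like cells, where *Igf1* in SI is 129 and 184 CPM against 46.8 and 65.3 CPM in LI, and *Igf1r* is highest in LI replicate 2 in each class.

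The unnamed cluster 3 had the largest ratio between regions in *Igfbp5*, with 107 and 175 CPM in LI against 2.38 and 5.91 CPM in SI, a ratio of 34.0 of the means. In CPM the gap was wider in cluster 0, with 642 and 916 CPM in LI against 249 and 405 CPM in SI. Of 9 clusters with 20 or more cells in every library, LI lay above SI in 6 (0, 1, 2, 3, 4 and 6), SI above LI in 1 (the mesothelial-like cluster 5), and the neural-like clusters 7 and 9 overlapped. Cluster 8, which had 19 cells in SI replicate 1, held 565 and 1318 CPM in LI and 458 and 266 CPM in SI.

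**Figure D2:**
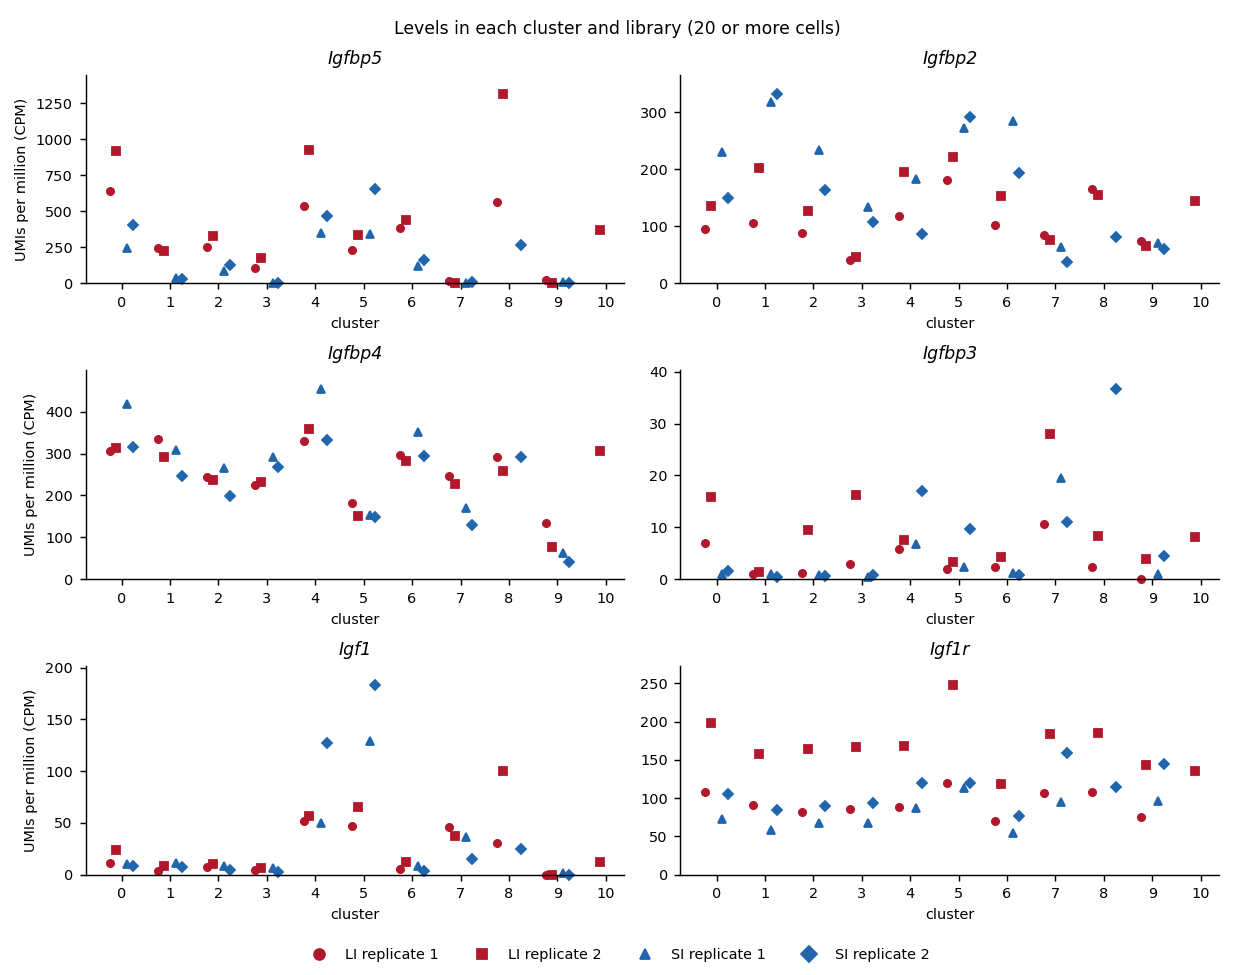
Level (CPM, linear axis from 0) of 6 members in clusters 0 to 10, with 1 point per library (red LI, blue SI) where the cluster has 20 or more cells in it. *Igfbp5* in cluster 3 is 107 and 175 CPM in LI and under 6 CPM in SI, *Igf1* is concentrated in clusters 4, 5, 7 and 8, and *Igfbp4* is present in every cluster shown.

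*Igfbp2*, the neighbour of *Igfbp5*, had the opposite order in SMC-like cells and the same order in mesothelial-like cells. SMC-like cells held 106 and 202 CPM in LI and 318 and 333 CPM in SI (log2 fold change 1.23 ± 0.28), and mesothelial-like cells 181 and 221 CPM in LI and 273 and 291 CPM in SI (0.56 ± 0.19), in both cases without overlap. FB-like cells held 96.7 and 142 CPM in LI and 226 and 137 CPM in SI (0.76 ± 0.28), so that SI replicate 2 fell between the LI libraries, and the difference was 0.34 without SI replicate 1. In neural-like cells LI was higher, with 84.0 and 73.8 CPM against 65.8 and 43.3 CPM (-0.59 ± 0.25). The class means were 242 ± 50.2 CPM in mesothelial-like, 239.7 ± 107 in SMC-like, 151 ± 54.2 in FB-like and 66.7 ± 17.3 in neural-like cells (SD, n = 4), with overlap among the first 3 and neural-like cells below them all. SI lay above LI in 6 of the 9 clusters compared, and LI above SI in cluster 7.

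The contractile genes of SMC-like cells moved between libraries as well. The 12 SMC markers summed to 1917 and 6292 CPM in LI and 5265 and 11220 CPM in SI, all 12 of them with UMIs, and their part in the values of *Igfbp2* and *Igfbp5* in this class was not tested. SMC-like cells were 14.7 and 16.7% of the kept LI cells and 24.5 and 30.2% of the SI cells.

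*Igfbp4*, a binding protein that restrains IGF until it is cut by PAPP-A, was the most evenly read of the 6. FB-like cells held 289, 299, 346 and 288 CPM and SMC-like cells 336, 293, 308 and 247 CPM, with overlap between regions in both. Mesothelial-like cells held 182, 151, 152 and 148 CPM. Only neural-like cells had regions that did not overlap, with 229 and 199.9 CPM in LI and 147 and 107 CPM in SI (log2 fold change -0.82 ± 0.22). The class means fell into a higher pair, FB-like (306 ± 27.5 CPM) and SMC-like (296 ± 36.8), and a lower pair, neural-like (171 ± 54.5) and mesothelial-like (158 ± 15.6 CPM, SD, n = 4), with overlap within each pair and none between them. Within the neural-like class, cluster 7 held 128 to 247 CPM and the neuronal cluster 9 held 134, 76.8, 61.7 and 40.2 CPM.

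*Igfbp3*, whose product carries most IGF in adult serum, was sparse, with 1032 UMIs in all. Neural-like cells held 8.87 and 23.5 CPM in LI and 15.4 and 9.36 CPM in SI, and cluster 7 among them 10.5 to 28.0 CPM. FB-like cells held 4.86, 12.9, 1.64 and 5.30 CPM, mesothelial-like cells 1.99, 3.19, 2.24 and 9.56 CPM and SMC-like cells 0.439 to 1.33 CPM. Neural-like cells were thus the highest of the 4 classes in 3 of 4 libraries, and in SI replicate 2 the mesothelial-like cells and the unnamed cluster 8 (36.7 CPM) lay above them. At 3000 UMIs the share of neural-like cells with a UMI was 2.36 to 3.76%, which overlapped FB-like (0.41 to 3.35%) and mesothelial-like cells (0.535 to 2.98%), and it was 0.108 to 0.403% in SMC-like cells. Among the FB-like clusters, cluster 0 held 6.94 and 15.8 CPM in LI against 0.955 and 1.56 CPM in SI. Cluster 2 held 1.18 and 9.38 CPM in LI against 0.771 and 0.637 CPM in SI. Cluster 4 held 5.70, 7.46, 6.79 and 16.9 CPM, which overlapped. Whether the clusters differed was not tested.

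*Igfbp6* and *Igfbp7* were barely read. *Igfbp6* had 85 UMIs in all kept cells, of which 27.1% came from mesothelial-like cells, at 1.66, 0.797, 2.69 and 6.37 CPM, although that class held 5.17% of all UMIs. *Igfbp7* had 446 UMIs, of which 59.2% came from unnamed cells, and in cluster 3 of SI replicate 2 it reached 26.3 CPM, against 0.961 to 5.91 CPM in the same cluster of the other 3 libraries. Single libraries thus set the levels of *Igfbp7* outside the named classes.

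UMIs of the 6 *Igfbp* genes were counted per cell, and the part of free RNA in these shares was not tested. Of FB-like cells thinned to 3000 UMIs, 8.15 to 14.9% had no UMI of any of the 6 *Igfbp* genes, and 33.7 to 39.2% had UMIs of 1 of them and 37.1 to 43.0% of 2. Among neural-like cells 38.7 and 40.6% in LI and 51.4 and 64.5% in SI had none.

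SI was compared with LI by edgeR (adjusted p under 0.05 over all genes tested). In FB-like cells 0 of the 7 members that passed the filter on low counts were called, where 3.28% of 13748 genes were, 2157 of them at an unadjusted p under 0.05. In SMC-like cells it was 1 of 5 (*Igfbp5*), where 1.16% of 12206 genes were called, and in mesothelial-like cells 1 of 5 (*Igf1*), where 1.08% of 10652 were. In neural-like cells 0 of 6 members and 0.31% of 11283 genes were called. Summed over all kept cells, 1 of 8 (*Igfbp5*) and 1.88% of 14926 genes were called, and these sums also carry the different class shares of the regions. Leaving out a library moved these counts. In FB-like cells they were 4 of 7 members (817 of 14075 genes) without LI replicate 1, 3 of 8 (1833 of 13971 genes) without LI replicate 2 and 3 of 8 (375 of 14098 genes) without SI replicate 2. In neural-like cells they were 2 of 6 members (246 of 11757 genes) without LI replicate 1, 4 of 6 (1474 of 11525 genes) without LI replicate 2 and 1 of 6 (138 of 11736 genes) without SI replicate 1. In SMC-like and mesothelial-like cells they were 1 or 2 members in each case, where 189 of 12664 to 1046 of 12625 and 116 of 11114 to 660 of 10877 genes were called. The libraries of SI and LI did not overlap for 1 of 7 members in FB-like, 3 of 5 in SMC-like, 4 of 5 in mesothelial-like and 3 of 6 in neural-like cells, beside 49.9, 46.9, 41.6 and 38.9% of all genes tested in these classes. These contrasts chose the members, so nothing is read from the counts, and p-values measure only the spread between these libraries.

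**Figure D3:**
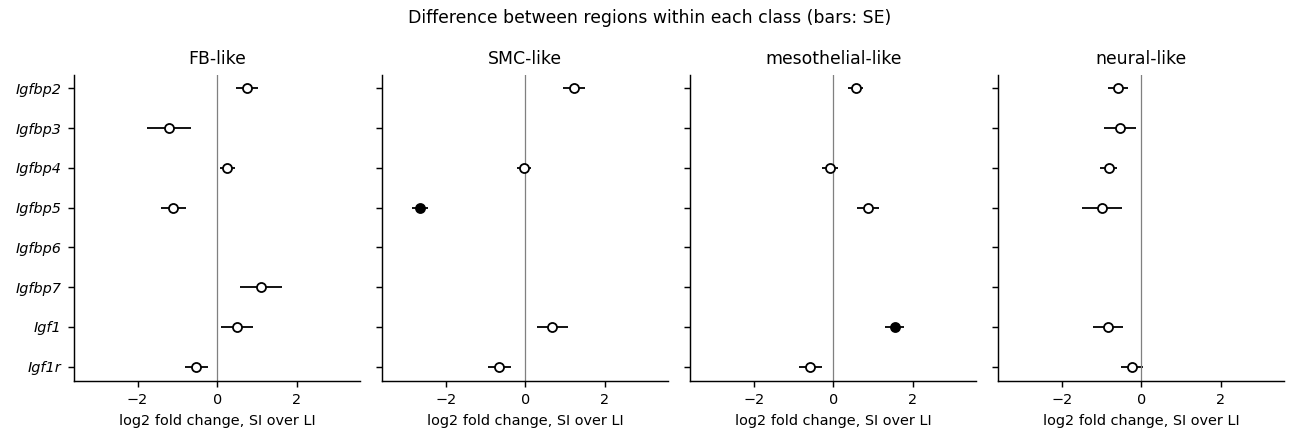
Log2 fold change of SI over LI for each member that passed the filter in the 4 classes, with bars of 1 SE and filled points where the adjusted p over all genes was under 0.05. *Igfbp5* runs from -2.64 in SMC-like to 0.87 in mesothelial-like cells, and *Igf1* from -0.83 in neural-like to 1.55 in mesothelial-like cells.

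Cell cycle phase was no part of how the members were chosen and was tested with library as a block. FB-like cells called S or G2M were compared with FB-like cells called G1 (916 to 1867 cells per library and phase), and *Mki67* and *Top2a*, which differed by 5.23 and 6.07 on the log2 scale, are on the gene list that made the phase calls and so do not test them. Among 7 members tested, 5 were lower in S or G2M and 0 were higher, where 42.3% of 12967 genes changed and 21.7% were lower. DESeq2 called 3 of the 7, without *Igfbp3* and *Igf1r*, and 3216 of the 12967 genes. *Igfbp5* fell in each library, from 675, 1082, 309.8 and 478 CPM in G1 to 364, 519.6, 128 and 256 CPM (log2 fold change -0.95 ± 0.06, adjusted p = 1.3e-08). *Igf1* fell from 18.2, 34.0, 26.9 and 44.1 CPM to 14.7, 17.8, 9.26 and 33.7 CPM (-0.69 ± 0.14, adjusted p = 0.0018).

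*Igfbp4* fell in FB-like cells from 322, 336, 452 and 338 CPM to 264, 271, 303 and 253 CPM (-0.33 ± 0.05, adjusted p = 0.00022). *Igfbp3* (-0.71 ± 0.21, adjusted p = 0.015) and *Igf1r* (-0.15 ± 0.05, adjusted p = 0.016) were lower in 4 of 4 libraries, and both lost the call without LI replicate 1 (adjusted p = 0.063 and 0.17) and without LI replicate 2 (0.061 and 0.095). *Igfbp2* (-0.08 ± 0.04, adjusted p = 0.18) and *Igfbp7* (0.54 ± 0.44, adjusted p = 0.34) did not pass. Phase and cluster were bound together, as cluster 2 made up 54.2% of the FB-like cells in S or G2M and 0.35% of those in G1, and cluster 0 made up 34.5 and 77.2%.

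Within cluster 0 alone, a comparison added after the data were seen, *Igfbp5* was lower by -0.39 ± 0.06 and still called (adjusted p = 4.0e-05), as were *Igfbp2* (-0.20, adjusted p = 0.017), *Igfbp3* (-0.88, adjusted p = 0.0043) and *Igfbp4* (-0.13, adjusted p = 0.036). In cluster 0 alone 2586 of 11980 genes were called, 1118 of them lower. There *Igf1* (-0.31, adjusted p = 0.12) and *Igf1r* (-0.08, adjusted p = 0.37) did not pass.

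In SMC-like cells 3 of 5 members tested were lower in S or G2M and 0 were higher, where 29.3% of 11686 genes changed and 14.7% were lower. *Igfbp2* fell from 131, 237, 347 and 369.9 CPM in G1 to 86.3, 164, 291 and 277 CPM (-0.39 ± 0.05, adjusted p = 2.0e-06). *Igfbp4* fell by 0.20 on the log2 scale (SE 0.05, adjusted p = 0.0019). The calls of *Igfbp2* and *Igfbp4* were lost with replicate number and region as blocks in place of library. That fit called 1 of 5 members and 1718 of 11686 genes. *Igfbp5* fell from 260.2, 261, 47.2 and 31.1 CPM to 235, 185, 30.2 and 27.7 CPM (-0.32 ± 0.07, adjusted p = 0.00098). That call was lost without LI replicate 2 (-0.23, adjusted p = 0.075), and the change was larger with finer clusters (-0.96, adjusted p = 1.8e-10). *Igf1* (-0.33 ± 0.18, adjusted p = 0.18) and *Igf1r* (0.05 ± 0.06, adjusted p = 0.57) did not pass. Whether phase changes differed between the classes was not tested.

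**Figure D4:**
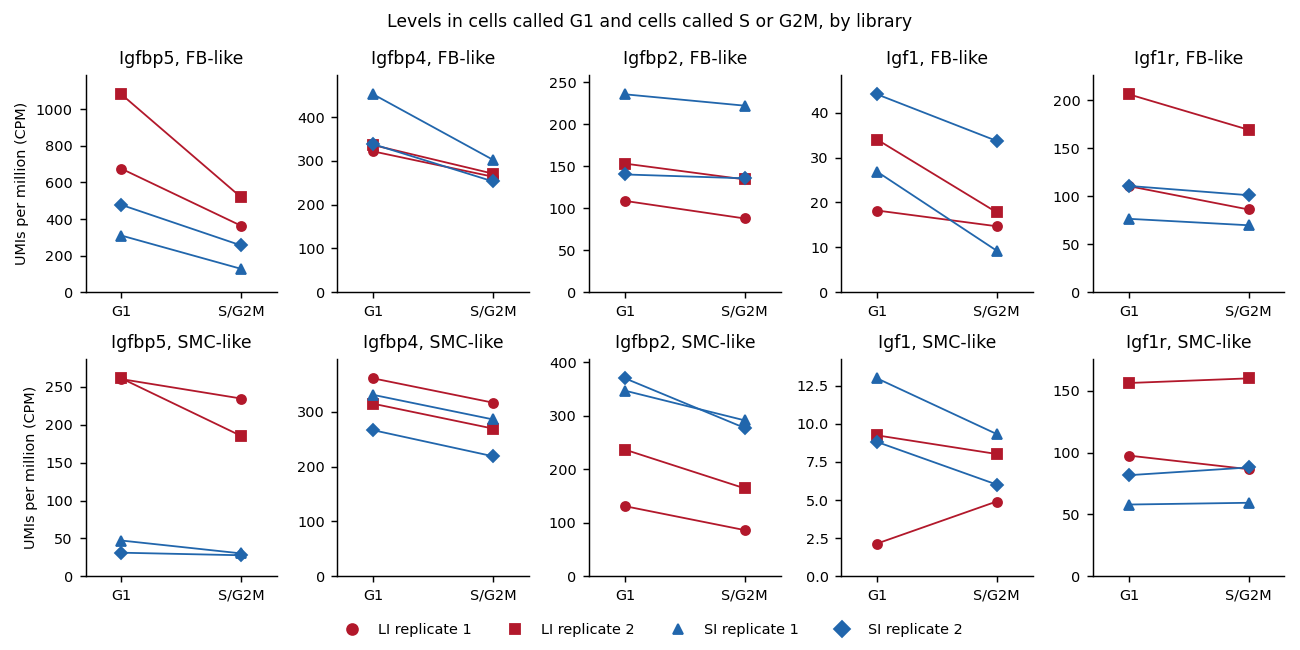
Levels of 5 members (CPM, linear axis from 0) in cells called G1 and in cells called S or G2M, joined for each library (red LI, blue SI), in FB-like cells (upper row) and SMC-like cells (lower row). *Igfbp5* and *Igfbp4* slope downward in all 4 libraries of both classes, whereas *Igf1r* in SMC-like cells is lower in 1 of 4 libraries.

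A list of 37 further genes of the IGF pathway, none of them a member, covered ligands, receptors, adaptors, proteases and kinases. The list was chosen with earlier results of these data known, so its calls and adjusted p-values between regions are a description. In FB-like cells 33 were tested between regions and 4 changed, of which SI was the higher region for 2 and LI for the other 2, beside 3.28% of all genes called. The median log2 fold change was -0.12, beside 0.01 over all genes. *Igf2*, the fetal ligand, rose in SI, with 245 and 409.6 CPM in LI and 633 and 727 CPM in SI (log2 fold change 1.21 ± 0.24, adjusted p = 0.037). *Ghr*, the growth hormone receptor, also rose in SI, from 35.2 and 46.6 CPM to 72.9 and 71.8 CPM (0.97 ± 0.19, adjusted p = 0.033). Leaving out SI replicate 2 ended the calls of *Igf2* (adjusted p = 0.052) and *Ghr* (0.090), and leaving out SI replicate 1 that of *Ghr* (0.098).

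*Htra1*, which encodes a secreted serine protease that cuts IGF binding proteins, was lower in SI, with 59.7 and 48.3 CPM in LI and 4.49 and 5.13 CPM in SI (-3.34 ± 0.23, adjusted p = 0.00034), an 11.2-fold difference of the means. *Irs4*, an adaptor of the insulin receptor substrate family, had 74 UMIs in LI and 2 in SI, a ratio of 44.8 with a counting interval of 11.97 to 377 (adjusted p = 0.0086). An antisense gene overlaps exons of *Irs4*, and another those of *Igf2*. *Igf2r*, which clears IGF2 from the cell surface (94.9, 129, 67.8 and 119 CPM), and *Insr*, the insulin receptor (14.6, 22.8, 13.9 and 20.5 CPM), overlapped between regions.

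**Figure D5:**
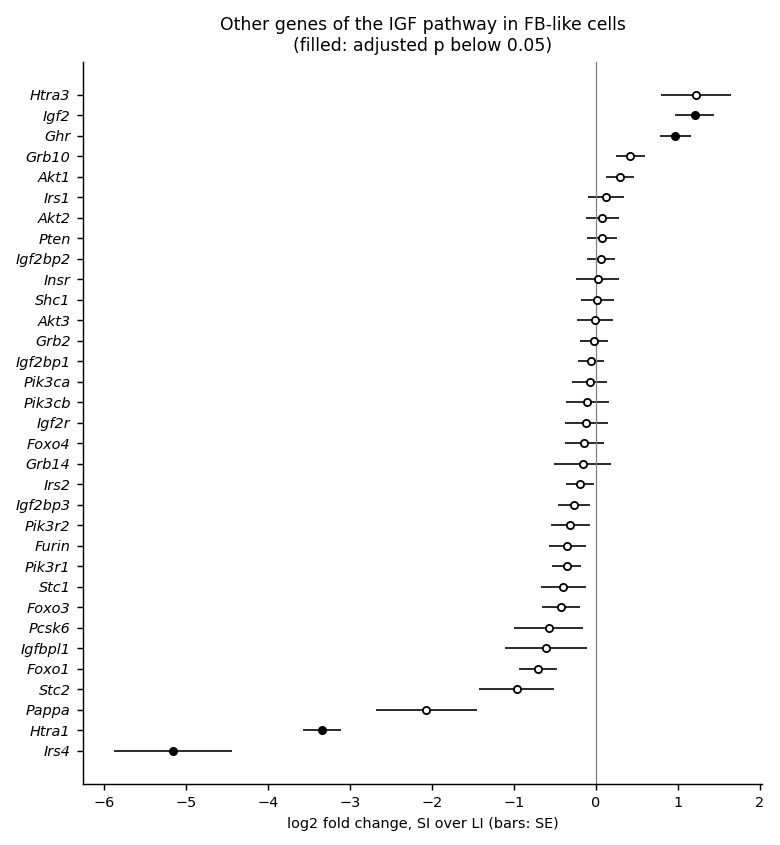
Log2 fold change of SI over LI in FB-like cells for the 33 tested genes of the IGF pathway that are no members, ordered by size, with bars of 1 SE and filled points where the adjusted p was under 0.05. *Igf2* and *Ghr* are filled on the SI side and *Htra1* and *Irs4* on the LI side.

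In SMC-like cells 2 of 29 pathway genes changed, which were *Ghr* (1.38 ± 0.22, adjusted p = 0.037) and *Htra1* (-3.74 ± 0.33, adjusted p = 0.0039), beside 1.16% of all genes called. *Htra1* there held 50.3 and 29.3 CPM in LI against 2.71 and 2.63 CPM in SI, whereas mesothelial-like cells held 4.32 and 5.18 CPM in LI and 5.38 and 10.8 CPM in SI (adjusted p = 0.61). *Igf2* in SMC-like cells held 172, 329, 622 and 634 CPM (1.47 ± 0.29, adjusted p = 0.074). In mesothelial-like cells edgeR called 0 of 26 (6 at an unadjusted p under 0.05, 1 by DESeq2) and in neural-like cells 0 of 29 (8 unadjusted, 2 by DESeq2). *Igf2* was highest in mesothelial-like cells, at 513, 851, 1246 and 1257 CPM, and lowest in neural-like cells, at 2.51 to 10.6 CPM. *Igf2r* and *Insr* were not called in any of the 4 classes. *Igfbp1* had 46 UMIs, of which 44 came from 2 of the 18 cells of cluster 11, a cluster led by liver and blood genes such as *Afp* and *Alb*.

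Between phases, 11 of 32 pathway genes changed in FB-like cells, 9 of them lower in S or G2M, and 7 of 28 in SMC-like cells, 5 of them lower, beside the 42.3 and 29.3% of all genes that changed and the 21.7 and 14.7% that were lower. *Igf2* was lower in S or G2M in both classes, by -0.37 ± 0.04 (adjusted p = 6.5e-06) in FB-like and -0.39 ± 0.05 (adjusted p = 3.6e-07) in SMC-like cells. *Igf2r* was lower as well (-0.21 and -0.30, adjusted p = 0.0024 and 0.0010).

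The genes most like each member were taken over 39 sums of a library and a cluster, among 6544 genes with a mean of 20 CPM or more, by Pearson's r of log2(CPM + 1). These sums share libraries and depth, and r is a description. *Igfbp5* was most like *Maf* (r = 0.91), *Hoxc9* (0.90) and *Klk8* (0.89), and *Igfbp4* most like *Cyba* (0.91), *Adgra2* (0.87) and *Cnn2* (0.87). *Igfbp2* was most like *Cdc42ep3* (0.81), *Rspo1* (0.80), which is also on the mesothelial marker list, and *Cobl* (0.77). *Igf1* was most like *Sparc* (0.85), *Soat1* (0.85) and *S100a11* (0.82), *Igf1r* most like *Zmiz1* (0.84), *Msi2* (0.79) and *Eif4g3* (0.78), and *Igfbp3* most like *Mest* (0.75), *Adamts1* (0.73) and *Serpinf1* (0.68). *Igfbp6* and *Igfbp7*, with the fewest UMIs, reached 0.73 with *Vkorc1* and 0.68 with *Efnb1*. Between the neighbours *Igfbp2* and *Igfbp5* r was 0.41, and between *Igf1* and *Igf1r* it was 0.29.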

How the data were processed

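The authors sequenced 4 libraries on the 10x Genomics Chromium platform and made the count matrices in Cell Ranger 3.1.0 with mm10 as the reference, and the submitters' processing notes also name Seurat 3. The deposited values are raw UMI counts per gene and barcode, without normalization.

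Barcodes with at least 1000 genes and under 10% mitochondrial UMIs were kept. Scrublet's automatic threshold (scanpy 1.11.5) marked 1 to 6 cells a library, so the cells with the highest doublet scores were removed at 0.8% per 1000 cells (183 to 348 a library). Libraries were integrated and clustered in Seurat 5.3.0 (R 4.3.3) at Louvain resolution 0.3 on 1961 genes, without the members and the pathway list. A cluster took a class name when 3 or more markers of it were among its 10 leading genes, and FB-like when no other class had a marker there and 3 or more FB markers were detected in 10% of its cells. Clusters with a relative depth under 0.5 stayed unnamed. These thresholds were set after clusters were seen, and differences from the study's cell types can come from rebuilt names.

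Cells are not replicates, so counts were summed per library and class (or phase, from Seurat's CellCycleScoring) and compared across libraries with edgeR 4.0.16 (quasi-likelihood test, TMM, filterByExpr, Benjamini-Hochberg adjustment over all genes, calls under 0.05). Alternatives were DESeq2 1.42.0, other normalization, no filter, blocks, each library left out, doublets kept, other clusters and thinned cells. SE was taken as the size of the log2 fold change divided by the root of the test's F. CPM is the count per 1000000 UMIs of the sum. Groups and replicate numbers came from the sample titles. Replicate numbers mark no stated pairing. The test was checked on simulated data, where it recovered 44 and 91% of genes with a log2 fold change of 1 and 2 between regions in FB-like cells (13540 genes), and 91 and 100% between phases (12705 genes). Gene positions came from GENCODE, in which 28339 of 28692 gene identifiers were found, and promoters from RefSeq, in which all 8 members were found. Named pathway genes were those called between regions in a class, plus *Igf2*, *Igf2r* and *Insr*. *Igfbp1* was named after its values were seen. The members, lists and tests were chosen with earlier results of these data known.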

Additional observations from a re-analysis of the deposited data

Results flagged for a closer look

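For 3 members with 100 or more UMIs in each class compared, the libraries of SI and LI separated in opposite directions in different classes, and whether the classes differed was not tested. The share of all genes that meet this rule was not computed. Within single classes, the regions did not overlap for 38.9 to 49.9% of all genes tested, so nothing is read from this count. *Igfbp5* had a ratio of SI over LI mean CPM of 1.74 in mesothelial-like cells, against 0.42 in FB-like and 0.145 in SMC-like cells. *Igfbp2* had a ratio of 2.12 in SMC-like and 1.40 in mesothelial-like cells, against 0.691 in neural-like cells. *Igf1* had a ratio of 2.78 in mesothelial-like cells and 0.583 in neural-like cells. In neural-like cells LI replicate 2 (30.5 CPM) and SI replicate 1 (28.7 CPM) were close. Their shares of cells with an *Igf1* UMI, thinned to 3000 UMIs, were 4.98 and 5.02%, so the shares did not separate by region.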

How the results depend on the processing

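Counts of genes called between regions rose without the filter on low counts, to 1031 in FB-like, 912 in SMC-like, 429 in mesothelial-like and 362 in neural-like cells. The DESeq2 Wald test called 301 in SMC-like and 102 in neural-like cells, and keeping high doublet scores 63 in neural-like cells. With a library left out the counts ran from 375 to 1833 in FB-like, 189 to 1046 in SMC-like, 116 to 660 in mesothelial-like and 0 to 1474 in neural-like cells. The highest of each came without LI replicate 2, and the 0 calls by edgeR came without SI replicate 2, where 287 genes had an unadjusted p under 0.05. The cause was not tested.

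Replicate numbers are shared by the regions but mark no stated pairing. With the replicate block the counts were 1373, 991, 771 and 408 in FB-like, SMC-like, mesothelial-like and neural-like cells, with 7 pathway genes in FB-like cells, and 2 of 7, 3 of 5, 3 of 5 and 2 of 6 members were called in these classes, against 0, 1, 1 and 0 without the block. Same-numbered libraries had correlated deviations from their group means (0.30, 0.41, 0.23 and 0.30).

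Between phases, the counts in FB-like cells were 3216 by DESeq2, 887 with no library block, 3332 with replicate block and region in place of library, 3619 with cells thinned to 3000 UMIs and 2586 in cluster 0 alone. In SMC-like cells they were 1448, 571, 1718 and 1795 under the first 4 of these and 2177 at resolution 0.6. Without the library block 0 of 7 and 0 of 5 members were called, and with replicate block and region in its place 3 of 7 and 1 of 5, which ended the calls of *Igfbp3* and *Igf1r* in FB-like cells and of *Igfbp2* (adjusted p = 0.077 by edgeR) and *Igfbp4* (0.069) in SMC-like cells. Keeping high doublet scores left 4 of 7 in FB-like cells, where 5423 of 12966 genes were called. The sign turned for *Igfbp2* in FB-like cells at resolution 0.6 (0.039), for *Igfbp7* in FB-like cells without SI replicate 2 (-0.31, with 1.07 the highest without another library), for *Igf1* in SMC-like cells at resolution 0.6 (0.057) and for *Igf1r* in SMC-like cells with thinning (-0.080). None of these values was called. Cells in named classes were 83.5% at resolution 0.3 and 75.5% at 0.6. With unnamed clusters 3, 6 and 8 added to FB-like cells, also chosen after seeing the data, 438 genes were called between regions. Depth limits *Igfbp3*, *Igfbp6* and *Igfbp7* most, with 1032, 85 and 446 UMIs.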
